A study of Callithrix jacchus with 4 samples.

Results

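The set described here is 6 genes: the cell surface proteins CD44, TNFRSF12A and CD47, the transcription factor KLF6, and the enzymes SAT1 and NAMPT. They were picked by name from the 16383 genes that both tables of nuclei listed, because earlier looks at these nuclei had shown them to differ between injured and control cortex. Their levels in injured against control nuclei are therefore a description and carry no test. The nuclei came from the primary visual cortex (V1) of adult common marmosets. In the injured cohort 3 animals had received endothelin-1 (ET-1), a peptide that constricts vessels and causes a focal ischemic stroke, 7 days before the tissue was taken, and each animal gave 1 library (replicate 1 is animal F1619, replicate 2 is F1565 and replicate 3 is F1711). The dissected tissue held both the core and the penumbra of the stroke. In the control cohort V1 of 3 adult uninjured marmosets was pooled into a single library and no agent was given, so control animals cannot be compared with each other. The cohorts also differed in how nuclei were isolated (a sucrose cushion for injured, low-speed spins and flow sorting of Hoechst-stained nuclei for control). They differed in sequencing facility, instrument and read layout (paired-end on an Illumina HiSeq for injured, single-end on an MGI sequencer for control). Doublets were removed in different ways too, and none of these differences can be told apart from injury.

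CD44 is the main receptor for hyaluronan, a sugar polymer of the extracellular matrix, and is known as a mark of reactive and fibrous astrocytes. TNFRSF12A (also called Fn14) is the receptor of the cytokine TWEAK and is known to be induced in injured tissue. CD47 binds SIRP-alpha on phagocytes and signals against engulfment. KLF6 is a zinc finger transcription factor of the Krüppel-like family. SAT1 acetylates spermidine and spermine, the step that commits polyamines to breakdown or export, and NAMPT makes the rate-limiting step of the salvage pathway to NAD.

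Per library, 7500 to 12527 injured nuclei and 8610 control nuclei were counted. The median nucleus held 3531 to 4504.5 unique molecular identifiers (UMIs, tags that each mark 1 captured transcript) in the injured libraries and 2117 in the control library. The 7 cell types were those assigned by the authors: astrocytes (Astro), oligodendrocyte precursors (OPC), oligodendrocytes (Oligo), microglia, endothelial cells (Endo), excitatory neurons (ExN) and inhibitory neurons (InN). Of the marker genes of these types, 32 of 33 in the injured cohort and 31 of 32 in the control cohort were highest in their own type. The control endothelial nuclei stood apart: their 3 endothelial markers summed to 848 CPM (UMIs of a gene per 1000000 UMIs of that cell type and library), against 3404 to 4096 in the injured libraries, and the 6 astrocyte markers there summed to 1171 CPM. The nuclei named microglia also differed between cohorts. Over the injured animals CD74 was at 1169 CPM against 8.03 CPM in control, and GPR34 at 32.0 against 289 CPM. P2RY12 (160 against 233 CPM) and DOCK8 (1175 against 1253 CPM) were closer. Control microglia held 570 CPM of the endothelial marker FLT1. By staining, the paper judged nearly all macrophages of the ischemic zone at 7 days to be peripheral. The part of such cells in the microglia values was not tested. Any pair of libraries shared 15 to 27 barcodes, at most 0.302% of a library.

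Across the 42 combinations of gene and cell type, all 3 injured animals were above the control library in 38 and all 3 were below it in 2, which were SAT1 in endothelial cells and CD47 in excitatory neurons. Many other genes did the same: all 3 animals were above control for 36% of the genes tested in astrocytes, 47.8% in endothelial cells, 31.3% in excitatory neurons, 30.8% in inhibitory neurons, 49.4% in microglia, 32.9% in oligodendrocytes and 41.4% in OPCs, and below it for 40.9% in endothelial cells and 47.5% in excitatory neurons. In microglia, where the median log2 fold change over all genes was 0.42, 23.3% to 26.2% of genes had a higher value than CD44, KLF6, SAT1, NAMPT or CD47, and in endothelial cells 25.3% and 28.9% had a higher value than NAMPT and CD47. In astrocytes 1.55% to 8.40% of genes had a higher value than a member. Control counts were low in places: 11 of the 42 control values rested on 3 or fewer UMIs and 6 on none. In the 3 cell types where every gene had a control UMI, the median log2 fold change of the 6 genes was 4.15 in astrocytes, 1.54 in inhibitory neurons and 1.23 in excitatory neurons, beside medians over all genes of 0.05, 0.0027 and 0.0039. The plot of levels by library shows the values behind these medians, and the gaps in neurons, though smaller than in astrocytes, were there for KLF6, SAT1, NAMPT and TNFRSF12A in both neuron types.

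**Figure D1:**
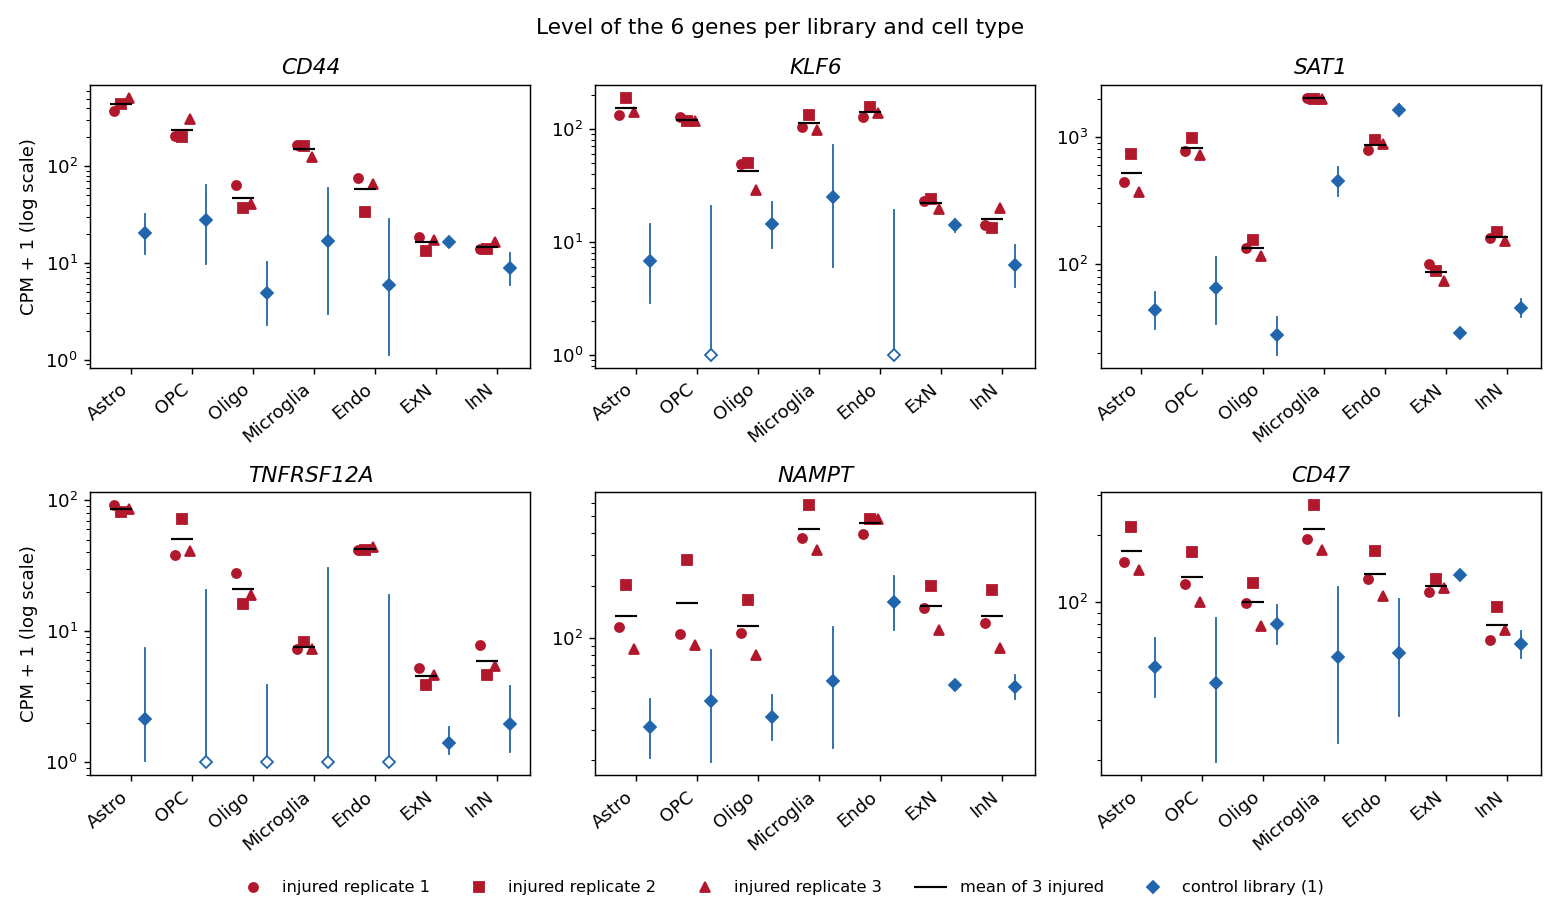
Level of each gene in CPM + 1 (log scale) by cell type. Red symbols are the 3 injured libraries with their mean as a black line, blue diamonds are the control library with its exact 95% Poisson interval for counting error, and open diamonds mark a control value of 0 UMIs. TNFRSF12A had no control UMI in 4 cell types, and SAT1 in Endo and CD47 in ExN were lower in the injured libraries.

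CD44 was highest in injured astrocytes. There it reached 372, 436 and 511 CPM in injured replicates 1, 2 and 3, against 19.7 CPM (17 UMIs) in control astrocytes. The injured animals did not overlap the control value, and the mean of 440 ± 69.8 CPM (SD, n = 3) was 22.4 times the control level. In OPCs the injured libraries held 206, 200 and 306 CPM, against 26.8 CPM in control. Microglia followed with 164, 163 and 124 CPM. The control microglia gave 2 UMIs, so the ratio of 9.45 had a counting interval of 2.61 to 78.0. The ranges of astrocytes, OPCs and microglia did not overlap each other. In excitatory neurons the injured animals held 17.5, 12.4 and 16.4 CPM around a control value of 15.4 CPM, and the sign of the fitted difference turned when library size alone set the scale, with log2 fold changes from -0.0058 to 0.30 over 11 settings. The share of CD44 transcripts from each type follows both level and the number of nuclei captured, and the latter differed: excitatory neurons were 62.7% of control nuclei and 24.8%, 36.4% and 31.7% of injured nuclei. Excitatory neurons gave 83.0% of the CD44 UMIs of the control library and 6.03%, 9.34% and 7.19% in the injured libraries. In injured replicate 1 microglia gave 53.5% of them, and in replicate 3 astrocytes gave 45.4%, so the leading source was not the same in each animal.

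TNFRSF12A was nearly absent from the control library, which held 11 UMIs of it over all nuclei. The injured libraries held 562, 691 and 765 UMIs. Astrocytes had the highest level, with 90.6, 80.0 and 84.8 CPM in the injured animals against 1 UMI in 594 control nuclei. The ratio was 73.2, with a counting interval of 13.1 to 2895 that says how little 1 UMI fixes it. OPCs came next at 37.6, 70.5 and 40.2 CPM and endothelial cells at 40.7, 40.8 and 42.7 CPM, whose ranges overlapped. Neither had a control UMI. Against the 3 UMIs that a count of 0 allows in the control library, a limit slightly under the exact interval drawn in the plot, the lowest injured animal was at least 2.34-fold higher in OPCs, at least 2.77-fold higher in endothelial cells and at least 6.42-fold higher in oligodendrocytes. Microglia, at 6.30, 7.24 and 6.38 CPM, lay under that limit and no fold is given. Microglia were thus among the lowest types for this receptor while they were the third highest for CD44. The cytokine that binds the receptor, TNFSF12, was not analysed here since it was not listed in both tables.

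CD47 had the most even levels of the 6 genes. Injured values by cell type had means from 78.5 CPM in inhibitory neurons to 210 CPM in microglia, and in this order each type overlapped the next. In microglia CD47 reached 191, 269 and 170 CPM against 56.2 CPM (7 UMIs) in control. In astrocytes it reached 150, 216 and 138 CPM against 50.9 CPM, a mean 3.31 times the control level. Excitatory neurons went the other way by a small amount, with 110, 126 and 115 CPM in the injured animals and 132 CPM in control. That difference was a log2 fold change of -0.054 (SE 0.13) in the fit, smaller than its error, and was below 0 in all 11 settings tried, from -0.17 to -0.0053. Before depth was equalised, the share of excitatory neurons with a CD47 UMI was higher in injured nuclei (48.8% ± 1.18, SD, n = 3, against 31.7%), and with every nucleus at 1000 UMIs it was lower (11.0% ± 0.705 against 12.9%). The receptor SIRPA was not listed in both tables and was not analysed here.

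KLF6 was highest in 4 non-neuronal types. Astrocytes and endothelial cells overlapped, as did OPCs and microglia, and the first pair lay above OPCs. Astrocytes held 132, 187 and 141 CPM, endothelial cells 127, 156 and 137, OPCs 125, 117 and 116, and microglia 103, 133 and 97.1 CPM in the injured animals. In control astrocytes it gave 5 UMIs (5.78 CPM), a gap of 26.5 times in the means. Control endothelial cells and OPCs gave no KLF6 UMI, so against the same limit the lowest injured animal was at least 8.64-fold and at least 7.25-fold higher. In control microglia 3 UMIs gave a ratio of 4.52 with a counting interval of 1.54 to 21.9. Excitatory neurons moved least, with 21.8, 23.1 and 18.3 CPM against 12.9 CPM (log2 fold change 0.82, SE 0.20). Inhibitory neurons (1.62, SE 0.42) and oligodendrocytes (1.74, SE 0.42) could not be ranked.

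SAT1 was above all a transcript of the nuclei named microglia in the injured cortex, at 2031, 1992 and 1993 CPM in the 3 animals. These values were far closer together than in any other cell type relative to the level. Microglia were 37.6%, 21.5% and 23.3% of the nuclei in the injured libraries and 129 of 8610 nuclei in the control library, and their share of transcripts follows this number as well as the level. They gave 80.1%, 56.3% and 64.0% of all SAT1 UMIs of the injured libraries and 5.18% of those of the control library, where the level in microglia was 450 CPM (56 UMIs). The widest gaps were in OPCs, at 771, 972 and 720 CPM against 64.2 CPM, and in astrocytes, at 443, 735 and 370 CPM against 42.8 CPM, 12.8 and 12.1 times the control level in the means. Both neuron types were higher too, inhibitory neurons at 161, 177 and 152 CPM against 44.4 CPM. Endothelial cells were the exception, with 788, 947 and 874 CPM in the injured animals and 1627 CPM (332 UMIs) in control, a log2 fold change of -0.77 (SE 0.23). It was below 0 in each of 11 settings, from -1.05 to -0.69. The control endothelial nuclei are those whose endothelial markers were low, and they held 5248 CPM of CEMIP against 755 to 1364 CPM in the injured libraries. The part of these differences in the SAT1 value was not tested. The microglial markers were also higher in other injured cell types. They summed to 249, 174 and 145 CPM in excitatory neurons against 61.5 CPM in control. In inhibitory neurons the sums were 238, 190 and 148 CPM against 62.9 CPM, and in OPCs 358, 314 and 217 CPM against 128 CPM. In oligodendrocytes they were 373, 321 and 272 CPM against 75.2 CPM. The marker C1QB was listed for the injured cohort only. The part of microglial transcripts in the SAT1 values of these types was not tested.

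NAMPT was highest in endothelial cells and microglia, whose ranges overlapped. Endothelial cells held 398, 481 and 485 CPM in the injured animals against 162 CPM in control. Microglia held 376, 578 and 319 CPM against 56.2 CPM (7 UMIs). Injured replicate 2 had the highest NAMPT in 6 of the 7 cell types, and in OPCs its 282 CPM stood against 105 and 90.2 CPM in the other animals. The same animal was also highest for CD47 in each of the 7 types. In astrocytes NAMPT was 115, 201 and 85.9 CPM against 30.1 CPM, 4.46 times the control level in the mean, the second smallest astrocyte gap of the set after CD47.

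In a fit across all genes, a gene was called at an adjusted p below 0.01, a change above 0.25 on the natural log scale and detection in 10% or more of either cohort's nuclei. Since the genes were chosen on this contrast, nothing is read from their calls. In astrocytes 4 of the 6 genes were called (CD44, KLF6, SAT1 and TNFRSF12A), where 1.5% of 12445 genes were called. In endothelial cells KLF6 and NAMPT were called, where 6.18% of genes were. SAT1 alone was called in OPCs (0.0697% of genes), oligodendrocytes (0.774%), excitatory neurons (3.85%) and inhibitory neurons (3.41%). In microglia edgeR called no gene at all (0% of 13470, with 2857 at an unadjusted p below 0.05 and 303 called by DESeq2), so the absence of calls there says nothing of the set. The 10 calls became 21 without injured replicate 2, 19 without replicate 3 and 7 without replicate 1. No share of all genes called is given for these other settings, so the changes in count are not read as changes of the set. In astrocytes the log2 fold changes were 4.60 (SE 0.35) for CD44, 4.83 (SE 0.45) for KLF6, 3.70 (SE 0.48) for SAT1, 2.27 (SE 0.55) for NAMPT and 1.84 (SE 0.34) for CD47, while the median over all genes was 0.05.

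Deeper nuclei show more of every gene, and the median astrocyte held 3851 UMIs in the injured cohort and 1183 in control. The share of nuclei with a UMI was therefore also taken with every nucleus at 1000 UMIs, which left 2071 of 2107 injured and 362 of 594 control astrocytes. At that depth CD44 was seen in 19.5%, 20.4% and 23.2% of injured astrocytes and 1.60% of control astrocytes. Without thinning the shares were 37.9% ± 4.88 (SD, n = 3) and 2.53% (exact 95% interval 1.42% to 4.13%). In inhibitory neurons, which had the lowest CD44 level in injured nuclei and a median of 5333 injured and 2441 control UMIs, thinned shares were 1.42% ± 0.247 in injured nuclei and 0.816% in control. The astrocyte share was well above this level in injured nuclei. In control, cell types with a CD44 UMI at this depth ran from 0.106% in oligodendrocytes to 3.89% in OPCs, and the 1.60% of astrocytes lay between them. KLF6 was seen in 11.7% ± 1.57 of thinned injured astrocytes against 0.424% in control, SAT1 in 32.4% ± 6.70 against 4.30%, and TNFRSF12A in 6.54% ± 0.459 against 0.159%. These intervals and limits cover counting error only.

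**Figure D2:**
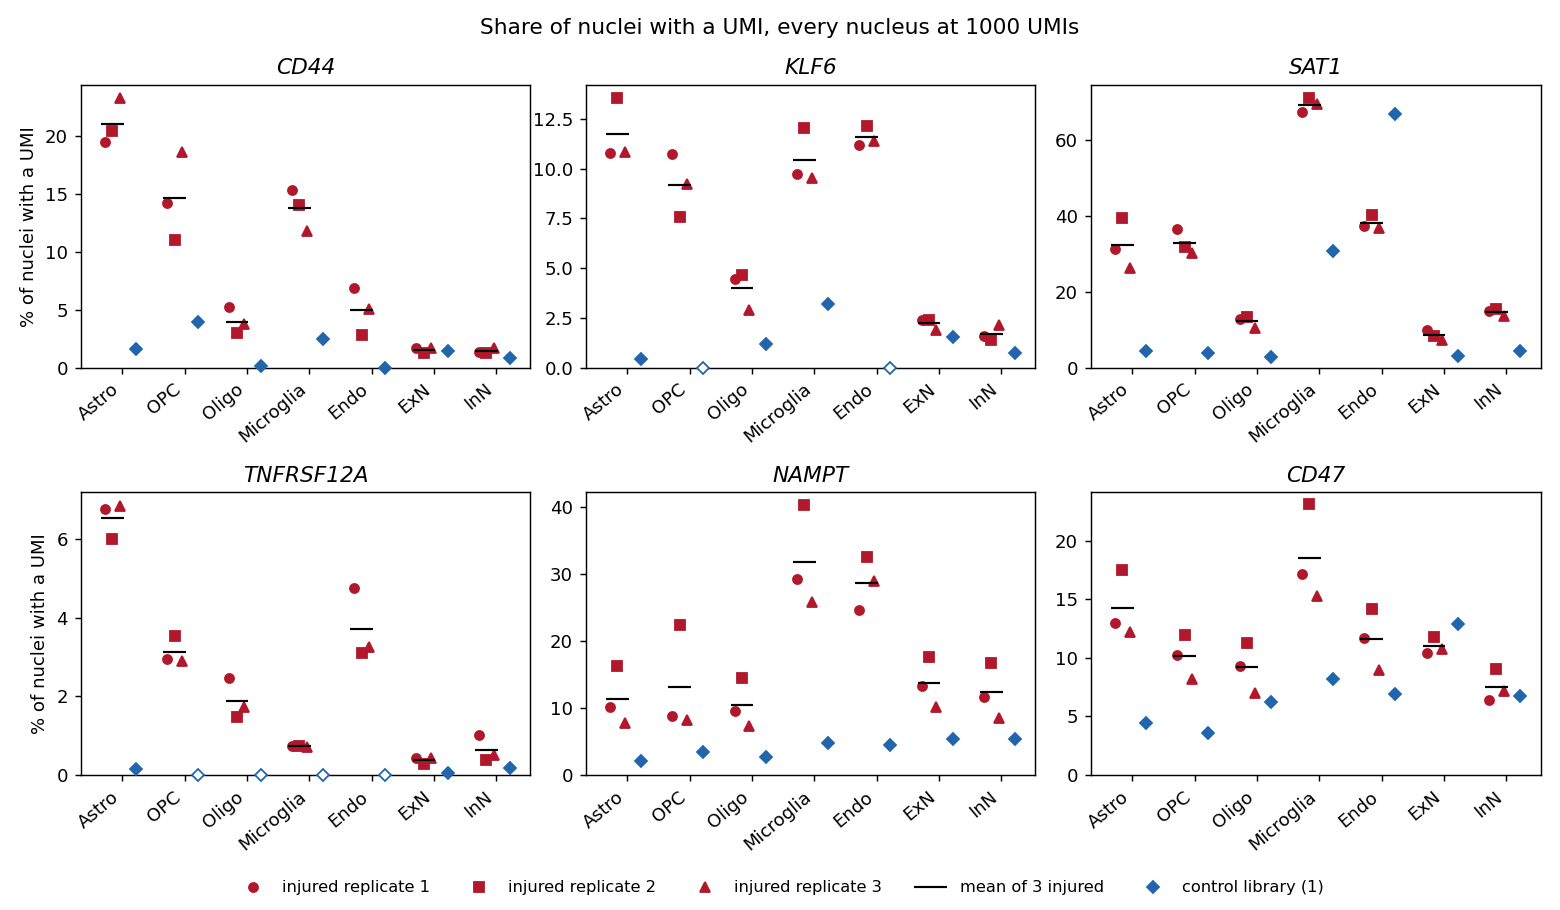
Share of nuclei with a UMI of each gene, in percent, with every nucleus at 1000 UMIs and shallower nuclei left out. Red symbols are the 3 injured libraries with their mean as a black line, and blue diamonds are the control library (open where the gene had 0 UMIs). CD44 lay between 19.5% and 23.2% in injured astrocytes, and CD47 in ExN was lower in the injured libraries.

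Next, the genes were counted together in single astrocytes. In 1 random draw of 1000 UMIs per nucleus, 61.6%, 64.5% and 58.2% of injured astrocytes had at least 1 of the 6 genes, against 10.2% of control astrocytes. At least 2 were seen in 23.1%, 33.7% and 20.7%, against 0.829% in control. No nucleus at this depth showed all 6, and the most seen in one was 5. At 1000 UMIs TNFRSF12A was seen in 6.54% and SAT1 in 32.4% of injured astrocytes. Few nuclei could then show many of the genes, so these counts do not tell how far the genes overlap. Whether the genes fell in the same nuclei was then compared inside the injured animals, which the injured against control contrast does not use: nuclei with a UMI of 1 gene were compared with those without, with the animal as a block, over all genes. The study had picked CD44 and KLF6 for following RTN4 in these same astrocytes, so values for CD44 with KLF6, and for the genes in nuclei split by RTN4, are given as a description with no test, and the other pairs are not independent of earlier results either.

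**Figure D3:**
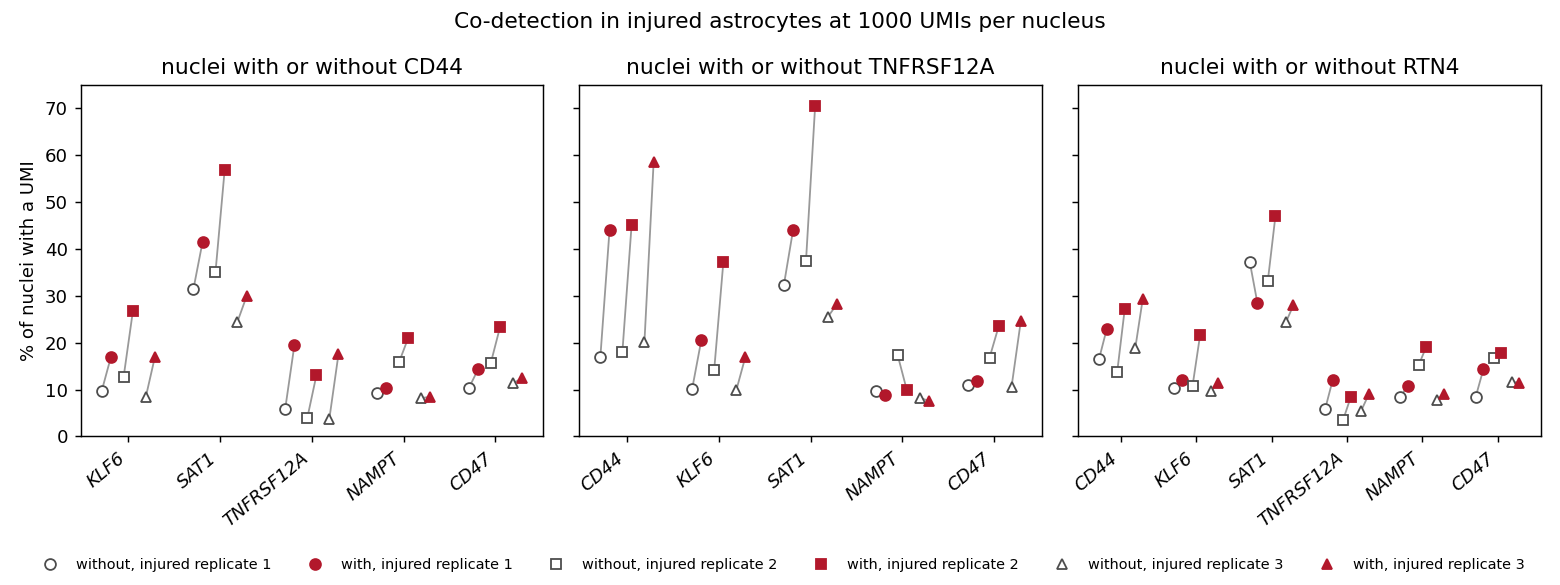
Percent of injured astrocyte nuclei with a UMI of each gene at 1000 UMIs per nucleus, among nuclei without (open) and with (red) CD44, TNFRSF12A or RTN4. Symbols mark the 3 injured animals and grey lines join the classes of 1 animal. In nuclei with TNFRSF12A, CD44 was seen in 44.1% to 58.5%, against 17.0% to 20.2% of the others.

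CD44 and the TWEAK receptor were the closest pair. Among astrocytes with TNFRSF12A, CD44 was seen in 44.1%, 45.1% and 58.5% of nuclei in replicates 1, 2 and 3, against 17.0%, 18.1% and 20.2% of those without. CD44 was higher by 1.58 on the log2 scale (SE 0.19, adjusted p = 1.35e-06, higher in 3 of 3 animals). In the other direction, TNFRSF12A was seen in 19.5%, 13.1% and 17.5% of CD44+ nuclei and in 5.92%, 3.89% and 3.67% of CD44- nuclei, a log2 difference of 1.89 (SE 0.26, adjusted p = 1.42e-08). The pair was called in both directions in 13 of 14 settings, and both calls were lost with 500 UMIs per nucleus. At 1000 UMIs 138 injured astrocytes had a TNFRSF12A UMI and 430 a CD44 UMI, against 436 and 783 before thinning. The classes without a gene thus held nuclei that had it at full depth. KLF6 went with CD44: it was seen in 16.9%, 26.7% and 16.9% of CD44+ nuclei and 9.66%, 12.8% and 8.33% of CD44- nuclei (log2 difference 1.02, SE 0.21). With the nuclei split by KLF6, CD44 had a log2 difference of 0.89 (SE 0.16). SAT1 was higher by 0.66 in CD44+ nuclei (SE 0.16, adjusted p = 0.0017), seen in 41.6%, 56.8% and 29.9% of them against 31.5%, 35.0% and 24.5%. This SAT1 call held in 8 of 14 settings. It was lost without injured replicate 2 (adjusted p = 0.183), without replicate 3 (0.0215), with DESeq2 (0.0545), without the block (0.215), with no filter on low counts and at 500 UMIs. The values of CD44 and KLF6 in each other's split are given without a test, since the study chose both genes for following RTN4.

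Besides CD44 with KLF6 there were 28 ordered pairs, which are not independent since each pair was read both ways, and 3 of them passed the limits. In nuclei split by CD44, 2 of these 4 genes were called where 6.55% of 5542 genes were, 0 of 4 in the split by KLF6 (0.444% of genes), 1 of 5 in the split by TNFRSF12A (1.9%), and 0 in the splits by SAT1 (0.0633%), NAMPT (0.0172%) and CD47 (0.0175%). Missing calls depended on the setting. With nuclei split by SAT1, CD44 was called in 4 of 14 settings and KLF6 in 3. In the split by KLF6, TNFRSF12A was called in 4 of 13 settings and SAT1 in 2 of 14. KLF6 was called in 4 of 14 in the split by TNFRSF12A. None of the 18 pairs that held NAMPT or CD47 was called at 1000 UMIs by edgeR or by DESeq2, though at 1500 UMIs edgeR called CD44 in the split by NAMPT (0.63, adjusted p = 0.00315), and without thinning it called 7 of them. At 1000 UMIs 4 of the 18 had an unadjusted p below 0.05, as had 14 of the 28. For NAMPT in CD44+ nuclei the log2 difference was 0.31 (SE 0.23, adjusted p = 0.432), and for CD47 it was 0.35 (SE 0.22, adjusted p = 0.337). NAMPT with TNFRSF12A had a negative value, -0.56 (SE 0.42), whose sign turned with a second random draw. A p above the limit does not show that these genes were independent.

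**Figure D4:**
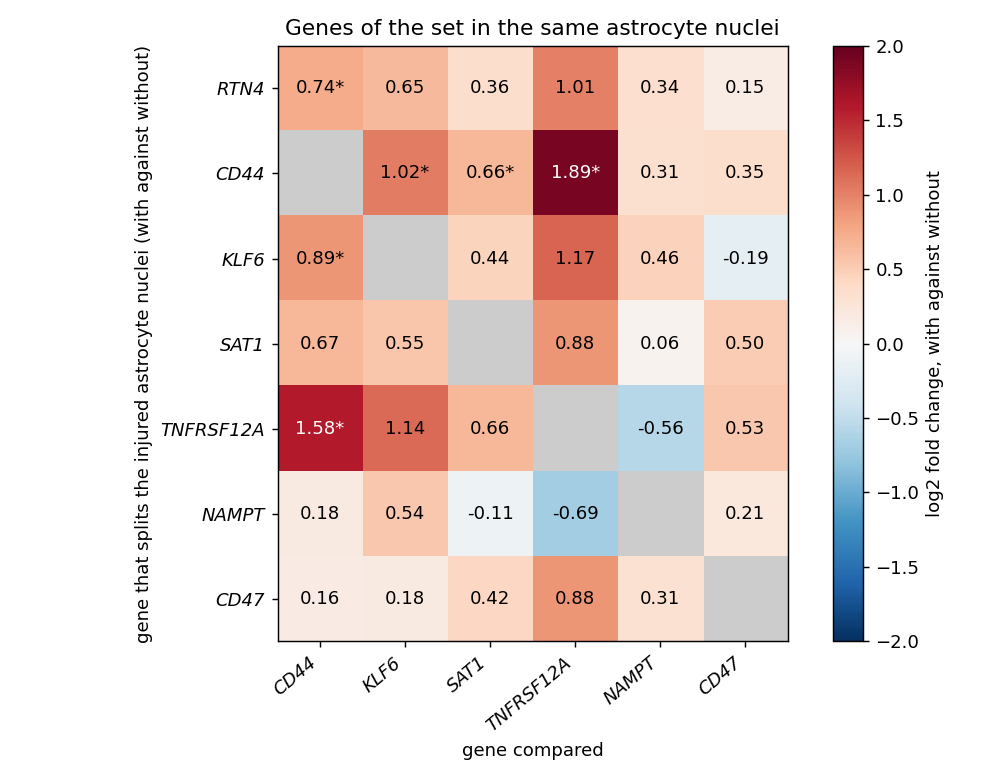
Log2 fold change of each gene (columns) in injured astrocyte nuclei with a UMI of the row gene against those without, at 1000 UMIs per nucleus. An asterisk marks a value past the limits, which for CD44 with KLF6 and for the split by RTN4 is a description with no test. Grey marks a gene against itself, and the largest value is 1.89 for TNFRSF12A in CD44+ nuclei.

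The astrocytes with CD44 had less of the transcripts that define astrocytes. SLC1A2, the main glial glutamate transporter, was at 1221, 1148 and 1559 CPM in CD44+ nuclei and 4361, 6788 and 5745 CPM in CD44- nuclei of the same animals. The classes did not overlap, and the log2 difference was -2.11 (SE 0.15, adjusted p = 2.8e-19). NDRG2, an astrocyte-enriched gene, was lower by a log2 difference of -1.99 (SE 0.24, adjusted p = 4.91e-10), with 77.9, 45.5 and 181 CPM against 396, 443 and 398 CPM. The water channel AQP4 was at -1.03 (SE 0.19, adjusted p = 2.8e-05), the folate enzyme ALDH1L1 at -0.80 (SE 0.17, adjusted p = 3.48e-04), and the transporter SLC1A3 at -0.50 (SE 0.14, adjusted p = 0.00987). GFAP, the filament protein of reactive astrocytes, was -0.30 (SE 0.17, adjusted p = 0.256) and was not called. So 5 of the 6 astrocyte markers fell in CD44+ nuclei, where 3.7% of all genes were called lower. SLC1A2 and NDRG2 were called in 14 of 14 settings, AQP4 in 11, ALDH1L1 in 10 and SLC1A3 in 6. With DESeq2, at 500 UMIs and without the block 2 markers were called, and without injured replicate 3 there were 3. Of the 27 markers of other cell types 15 could be tested and none was called, with the highest value for MBP of oligodendrocytes at 1.53 (SE 0.54, adjusted p = 0.0447). In replicates 1, 2 and 3, the microglial markers summed to 195, 193 and 164 CPM in CD44+ nuclei against 343, 249 and 202 CPM in CD44- nuclei. The oligodendrocyte markers summed to 143, 301 and 215 CPM against 212, 193 and 223 CPM, and the OPC markers to 208, 233 and 271 CPM against 234, 365 and 177 CPM. The inhibitory neuron markers summed to 39.0, 56.8 and 22.6 CPM against 31.2, 30.6 and 45.0 CPM. Some of these lists were thus higher in CD44+ nuclei of some animals, and their part in the result was not tested.

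Markers also fell with TNFRSF12A (2 of 6, where 1.16% of all genes were called lower) and with KLF6 (1 of 6, where 0.266% were). In nuclei with TNFRSF12A, SLC1A2 was at 588, 1255 and 1660 CPM, against 4049, 5947 and 5021 CPM (log2 difference -2.17, SE 0.19, adjusted p = 1.84e-09), and SLC1A3 was called lower as well. In the split by KLF6, SLC1A2 had a log2 difference of -0.96 (SE 0.13, adjusted p = 7.07e-05). No astrocyte marker was called in the splits by SAT1, NAMPT or CD47, where SLC1A2 had log2 differences of -0.29 (SE 0.12), -0.56 (SE 0.14) and -0.31 (SE 0.10). These missing calls depended on the draw and the depth: SLC1A2 was called lower in a second draw for SAT1 (-0.40, adjusted p = 5.87e-05) and NAMPT (-0.38, adjusted p = 0.00403), at 1500 UMIs for NAMPT (-0.56) and CD47 (-0.55), and without thinning for all 3. Whether these differ from the CD44 split was not tested.

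RTN4, the gene of the neurite growth inhibitor NogoA, was used by the study to class astrocytes, with RTN4+ meaning a log-normalised value above 1. The tables list 1 count for the gene and not its isoforms. At 1000 UMIs, 858 of 2071 injured astrocytes were RTN4+. Before thinning the same rule gave 83.8%, 73.4% and 74.4% RTN4+ nuclei in replicates 1, 2 and 3. The RTN4- class here thus held many nuclei that were RTN4+ at full depth, and the classes are not those of the study. CD44 was seen in 22.9%, 27.2% and 29.4% of RTN4+ nuclei and 16.6%, 13.7% and 18.9% of RTN4- nuclei in replicates 1, 2 and 3, a log2 difference of 0.74 (SE 0.12). It alone of the 6 genes passed the limits, where 0.794% of 6678 genes did, and nothing is read from this. It no longer passed without injured replicate 2 (log2 difference 0.58), with 500 UMIs per nucleus, with DESeq2 and without the block, and without replicate 2 only 1 gene was called in place of 53 (21 without replicate 3). The log2 difference of TNFRSF12A was 1.01 (SE 0.25), and it was seen in 9.32% of RTN4+ nuclei and 4.78% of RTN4- nuclei. TNFRSF12A missed only the limit on nuclei. KLF6 was at 0.65 (SE 0.18), and 0.21 without injured replicate 2. It was seen in 21 of 175 RTN4+ nuclei against 23 of 223 RTN4- nuclei in replicate 1, in 21.6% against 10.8% in replicate 2 and in 11.4% against 9.63% in replicate 3, so that replicate 2 carried most of the gap. By staining, the paper reported more astrocytes with both NogoA and CD44 or KLF6 after stroke than in control, which is another comparison. SAT1 was at 0.36 (SE 0.11), lower in RTN4+ nuclei of replicate 1 and higher in the other 2 animals. NAMPT was at 0.34 (SE 0.19) and CD47 at 0.15 (SE 0.18). The astrocyte marker SLC1A2, which that choice did not use, was lower here as well, with a log2 difference of -0.49 (SE 0.06, adjusted p = 3.71e-11), a call lost without injured replicate 2 (adjusted p = 0.213) and without the block.

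Outside the set, IL7 and IDO1 were called higher in 4 of the 6 splits by a member, more than any other gene at this draw. The IL7 call with TNFRSF12A held in 5 of 14 settings and was lost in a second draw at the same depth (adjusted p = 0.0133), so that the count of 4 depends on the draw. IL7 encodes a cytokine of lymphocyte survival and IDO1 an interferon-induced enzyme that breaks down tryptophan. Both were highest in replicate 2, and without that animal the calls of IL7 were lost in all 4 splits and those of IDO1 in 3 of them (CD44, KLF6 and SAT1). In the CD44 split both still had an adjusted p below 0.01 without it (0.0057 for IL7 and 3.37e-06 for IDO1) and missed the limit on nuclei. Over all settings the IDO1 calls held in 8 of 14 with KLF6 and in 9 of 14 with SAT1. In CD44+ nuclei IL7 was at 77.9, 1466 and 198 CPM against 84.1, 185 and 56.7 CPM, higher in 2 of 3 animals, and IDO1 was at 260, 1290 and 164 CPM against 131, 247 and 20.0 CPM. ANXA2, a calcium-dependent membrane-binding protein, held similar levels in each animal: 416, 403 and 362 CPM in CD44+ nuclei against 112, 88.9 and 102 CPM (log2 difference 1.97, SE 0.19, adjusted p = 3.35e-13), called in 14 of 14 settings. It was also called in the splits by KLF6 (1.01, SE 0.21) and TNFRSF12A (1.40, SE 0.26), but in 6 and 8 of 14 settings, and neither call held in a second draw at the same depth (adjusted p = 0.0104 and 0.0121). The gene ENSCJAG00000013876, which the tables give without a symbol, and WARS, the tryptophan tRNA ligase, were each called higher in 3 splits. With TNFRSF12A these calls held in 10 and 8 of 14 settings, and both were lost in the second draw (adjusted p = 0.116 and 0.0136). With KLF6 the calls of ENSCJAG00000013876 and WARS held in 9 and 12 of 14 settings. No gene was called higher in 5 or 6 splits.

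The partners of the 6 genes in their pathways were listed from general knowledge, 130 gene names in 6 lists, of which 105 were in both tables. Earlier results of these data were known when the lists were made, so these tests are not independent of them. In astrocytes 2 of 26 tested genes of the hyaluronan and CD44 list were called higher, against 1.12% of all genes. VCAN, the hyaluronan-binding proteoglycan versican, was higher by a log2 fold change of 4.01 (SE 0.56, adjusted p = 0.00658). It stood at 77.6, 115 and 67.6 CPM against 5.78 CPM, on 5 control UMIs. RDX, radixin, which links CD44 to actin, stood at 214, 260 and 226 CPM against 75.1 CPM (1.75, SE 0.24, adjusted p = 0.00606). On the TNFRSF12A list 2 of 10 were called higher, both adaptors of TNF receptors. TRAF1 stood at 43.9, 64.6 and 59.0 CPM against 4.62 CPM, on 4 control UMIs (3.70, SE 0.51, adjusted p = 0.00656). TRAF5 stood at 75.2, 69.0 and 63.4 CPM against 17.3 CPM, on 15 control UMIs (2.10, SE 0.30, adjusted p = 0.007). The CD47 and phagocytosis list had 2 of 10 higher and 1 lower. CALR, an endoplasmic reticulum chaperone that acts as an engulfment signal when it is on the cell surface, rose to 99.5, 121 and 98.9 CPM from 12.7 CPM (3.18, SE 0.34, adjusted p = 0.00319). ITGB1, the integrin beta-1 chain, rose to 218, 157 and 167 CPM from 34.7 CPM (2.48, SE 0.30, adjusted p = 0.00442). MERTK, a phagocytic receptor of astrocytes, fell to 461, 481 and 514 CPM from 1315 CPM (-1.32, SE 0.17, adjusted p = 0.00556), where 0.378% of all genes were called lower. No gene of the lists for Krüppel-like factors (12 tested), polyamines (15) or NAD (19) was called in astrocytes by edgeR, with 3, 4 and 5 at an unadjusted p below 0.05 and 1, 1 and 0 called by DESeq2. Without injured replicate 1 the calls of VCAN, RDX, TRAF5 and MERTK were lost, at adjusted p = 0.0107, 0.0119, 0.0173 and 0.0238. The calls of VCAN, TRAF1 and TRAF5 were also lost with nuclei at 1000 UMIs, where TRAF1 had adjusted p = 0.0144, and those 3, RDX and MERTK were lost among nuclei with at most 2500 genes. CALR and ITGB1 kept their calls in each setting. In the last setting RDX fell to a log2 fold change of 1.04 (adjusted p = 0.131). The astrocyte markers summed to 7652, 8765 and 9194 CPM in injured astrocytes against 14713 CPM in control, and the lower sum came from SLC1A2, at 4194 CPM over the injured animals against 12215 CPM. ALDH1L1 was also lower (478 against 584 CPM), while SLC1A3 (2716 against 1399 CPM), GFAP (514 against 148 CPM), AQP4 (466 against 95.9 CPM) and NDRG2 (314 against 272 CPM) were higher. The microglial markers summed to 302, 258 and 202 CPM against 90.2 CPM, with C1QB listed for the injured cohort only. Their part in these values was not tested.

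**Figure D5:**
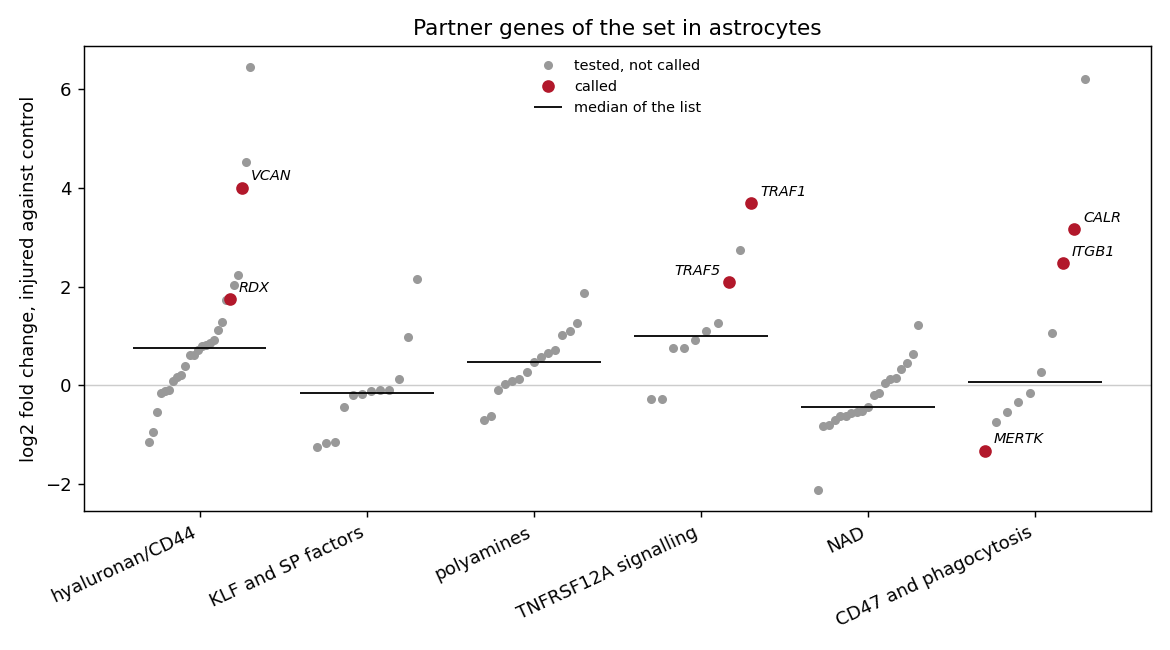
Log2 fold change, injured against control, in astrocytes for each tested partner gene, by list. Red points are called, grey points are not, and black lines are the medians of the lists, from -0.44 for NAD to 1.01 for TNFRSF12A signalling beside 0.05 over all genes.

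The list medians in astrocytes were 0.76 for hyaluronan and CD44, 1.01 for TNFRSF12A signalling, 0.47 for polyamines, 0.06 for CD47 and phagocytosis, -0.15 for Krüppel-like and SP factors and -0.44 for NAD. Over the 7 cell types 651 tests of partner genes gave 18 calls higher and 6 lower, in 17 genes, which is 3.69% of these tests beside 2.35% of the 90333 tests of all genes, and 9 of the calls were in endothelial cells, from 99 tests there (9.09%, beside 6.18% of all genes in these cells). Of the 6 calls lower 2 were HAPLN4, which had no UMI in the injured table, and without it 648 tests gave 18 calls higher and 4 lower (3.4%). Without injured replicate 1 the 18 and 6 calls became 13 and 3, without replicate 2 they became 48 and 23, and without replicate 3 they became 27 and 11. The share of all genes called without a replicate is not given here. CALR made 5 of the 18 higher calls. It was called in excitatory neurons, at 86.3, 73.3 and 85.8 CPM against 11.9 CPM (log2 fold change 2.90, SE 0.17), in inhibitory neurons (2.94, SE 0.22), in oligodendrocytes (2.68, SE 0.23) and in endothelial cells, where control gave 2 UMIs (ratio 60.9, counting interval 16.8 to 503). With every nucleus at 1000 UMIs the calls in both neuron types were lost because fewer than 10% of nuclei showed the gene. In endothelial cells KLF2, a flow-responsive factor of the same family as KLF6, was higher (3.07, SE 0.39, adjusted p = 0.00176). It stood there at 243, 298 and 246 CPM against 34.3 CPM, on 7 control UMIs. SLC3A2, a chain of amino acid transporters placed on the polyamine list, rose there to 186, 190 and 188 CPM from 49.0 CPM (2.07, SE 0.32, adjusted p = 0.00337), a call that was lost at 1000 UMIs (1.57, adjusted p = 0.0474). MAP3K14, the kinase of the non-canonical NF-kappaB pathway downstream of TNFRSF12A, fell to 43.2, 45.8 and 53.3 CPM from 171 CPM (-1.71, SE 0.28, adjusted p = 0.00447), and its call was lost without replicate 1. On the hyaluronan list, endothelial cells had lower CEMIP, a hyaluronan-degrading protein, at the levels given above (-2.27, SE 0.31, adjusted p = 0.00224). HYAL2, a hyaluronidase, was called higher at 110, 149 and 111 CPM, where control gave 2 UMIs (ratio 12.7, counting interval 3.52 to 105). TMEM2, a cell surface hyaluronidase, rose to 185, 221 and 205 CPM from 53.9 CPM (2.05, SE 0.34, adjusted p = 0.00484). At 1000 UMIs the calls of HYAL2 and TMEM2 were lost (adjusted p = 0.0264 and 0.0563), and that of TMEM2 also among nuclei with at most 2500 genes. ITGB1 rose there to 486, 433 and 453 CPM from 83.3 CPM (2.59, SE 0.29, adjusted p = 0.00105), called in 11 of 11 settings. These endothelial values rest on the 181 control nuclei whose endothelial markers were low, and the part of that was not tested. In oligodendrocytes SPP1, osteopontin, a ligand of CD44, rose to 602, 632 and 701 CPM from 120 CPM (2.53, SE 0.20, adjusted p = 0.00235). Microglial markers also summed higher in these nuclei, at 373, 321 and 272 CPM against 75.2 CPM, and in both neuron types. Their part in the SPP1 and CALR values of these types was not tested. In excitatory neurons BCAN, the proteoglycan brevican, was called higher, at 28.5, 24.7 and 26.2 CPM against 14.6 CPM (0.97, SE 0.16, adjusted p = 0.00936), in 7 of 11 settings. NF2, merlin, which binds the tail of CD44, was called lower there, at 128, 121 and 129 CPM against 224 CPM (-0.72, SE 0.10, adjusted p = 0.00594), in 8 of 11 settings. Both calls were lost at 1000 UMIs, among nuclei with at most 2500 genes and without injured replicate 1. HAPLN4, a hyaluronan link protein, had 1138 UMIs in control excitatory neurons and 313 in control inhibitory neurons and was listed at 0 in the injured libraries, at least 1262-fold and at least 406-fold lower. The injured table listed 32323 genes, 10933 of them with no UMI in any nucleus, and whether HAPLN4 could be counted there was not tested.

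Over the 28 sums of 7 cell types in 4 libraries, the genes with the pattern most like each member were found by Pearson's r of log2(CPM + 1) among 10300 genes with a mean of at least 10 CPM. The sums share libraries and depth. They also hold the gap between injured and control by which the members were chosen. Each r, also among the members, is therefore a description. For CD44 these were ANO10 (0.901), the adaptor TRAF1 (0.884) and the growth factor HGF (0.859). The call of TRAF1 above used part of the same sums, so the 2 results are not independent. For TNFRSF12A they were TRIM69 (0.955), PDLIM4 (0.911) and LGALS3BP (0.905), and for KLF6 they were EMP3 (0.946), MRPL41 (0.916) and ODC1 (0.905). ODC1 is the enzyme that opens polyamine synthesis, the counterpart of SAT1. For SAT1 they were ENSCJAG00000020117 (0.954), CASP4 (0.935) and RAB32 (0.931), for NAMPT SAMD9L (0.943), C1R (0.916) and C1S (0.910), the last 2 being proteases of the complement cascade, and for CD47 ZNFX1 (0.863), ENSCJAG00000003340 (0.863) and ZCCHC2 (0.853). Among the members themselves, KLF6 and TNFRSF12A were the most alike (r = 0.831) and CD44 and NAMPT the least (r = 0.382).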

How the data were processed

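Single-nuclei RNA sequencing on the 10x 3' platform covered 3 injured libraries and 1 pooled control library. The authors aligned reads to calJac3 with an Ensembl annotation, counted UMIs with Cell Ranger 3.1.0, clustered nuclei with Seurat and assigned cell types. The authors deposited whole-number UMI counts for every gene in every nucleus, and all nuclei were kept. Doublets had been removed from the injured cohort with Scrublet and the control cohort had been filtered on genes per nucleus.

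For each library, the counts of a cell type were added up over its nuclei for genes in both tables. Sums were compared with edgeR 4.0.16 in R 4.3.3 (TMM, filterByExpr, glmQLFit, glmQLFTest, Benjamini-Hochberg over all genes tested). With 3 libraries against 1, the spread came from the injured libraries. Injured astrocytes were thinned at random to 1000 UMIs, split, and tested with animal as a block. Thinned shares by cell type are exact expectations and not draws. Intervals are exact (Poisson or Clopper-Pearson, 95%). In simulated counts, 64% of fold-4 and 15% of fold-2 changes were called for 3 astrocyte libraries against 1 (12356 genes), 98% and 82% for RTN4+ against RTN4- (6647 genes), and 0 unchanged genes in either. The changes were simulated only in well-counted genes, with a single dispersion, no animal effect and no limit on nuclei. Rates for other genes and for smaller splits were not simulated. Python 3.11.15, numpy 2.4.6, pandas 2.3.3 and scipy 1.17.1 did the rest, and DESeq2 1.42.0 was an alternative.

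The 6 genes, the partner lists and the tests were chosen with earlier results of these data known. Genes named beyond the set are RTN4, cell type markers, partner genes called in astrocytes or among the 3 largest called changes of their list in a cell type, the 3 genes most like each member, and the 5 genes called higher in most splits. The second random draw and the test of astrocyte markers in nuclei split by CD44 were added after seeing the data. Animals within the control pool, protein staining and sequences of the genes were not analysed here.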

Additional observations from a re-analysis of the deposited data

Results flagged for a closer look

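For 2 of the genes the direction differed between cell types, with all 3 injured animals on one side of the control library in one type and on the other side elsewhere. SAT1 had a log2 fold change of -0.77 in endothelial cells, where all 3 animals were below control, while all 3 were above it in the other 6 cell types. CD47 had a log2 fold change of -0.054 in excitatory neurons, where all 3 animals were below control, while all 3 were above it in 5 cell types and 2 of 3 in oligodendrocytes. All 3 animals were below control for 40.9% of the genes tested in endothelial cells and 47.5% in excitatory neurons. The CD47 value was smaller than its SE of 0.13, and the control endothelial nuclei had low endothelial markers. Neither difference between cell types was tested, and with 1 control library the same control value enters for all 3 animals of a cell type.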

How the results depend on the processing

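The 10 calls of members against control became 17 with DESeq2, 21 at an adjusted p below 0.05 and 7 to 21 without 1 injured replicate. Partner genes called higher, 18, became 10 with nuclei at 1000 UMIs, 33 at 0.05 and 13 to 48 without 1 replicate, and those called lower, 6, became 11 with DESeq2, 3 at 1000 UMIs, 23 at 0.05 and 3 to 23 without 1 replicate. No share of all genes stands beside these counts of the other settings. The 53 genes called with RTN4 became 2 with DESeq2, 307 in nuclei not thinned, 5 at 500 UMIs, 94 at 0.05 and 1 to 44 without 1 replicate. The 5 ordered pairs past the limits, which include CD44 with KLF6 in both directions, became 3 with DESeq2, 19 not thinned, 1 at 500 UMIs, 10 at 1500 UMIs, 8 in a second draw, 8 at 0.05 and 2 to 6 without 1 replicate. The 5 astrocyte markers with CD44 became 2 with DESeq2, 2 at 500 UMIs and 3 to 5 without 1 replicate. Without the replicate block, which pairs both classes of nuclei of an animal, 1 gene was called with RTN4, 2 ordered pairs and 2 markers. No paired analysis was possible for injured against control because the cohorts were different animals and the control was 1 pool of 3.

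Among nuclei split by a gene, each value whose sign turned had not been called at 1000 UMIs, and 1 was called with its new sign (CD47 by KLF6, not thinned, adjusted p = 0.00694). With DESeq2, NAMPT by SAT1 (the gene, then the gene that splits the nuclei) was -0.040. Not thinned, CD47 by KLF6 was 0.42, NAMPT by TNFRSF12A 0.29, SAT1 by NAMPT 0.37 and TNFRSF12A by NAMPT 0.49. At 500 UMIs, CD47 was -0.49 by CD44, 0.10 by KLF6, -0.10 by SAT1 and -0.50 by NAMPT, NAMPT by SAT1 was -0.22, and by CD47 the values were -0.48 for CD44, -0.25 for KLF6, -0.13 for SAT1 and -0.30 for NAMPT. At 1500 UMIs, CD47 by KLF6 was 0.32, SAT1 by NAMPT 0.28 and TNFRSF12A by NAMPT 0.028. In the second draw, CD47 was 0.21 by KLF6 and -0.17 by TNFRSF12A, NAMPT by TNFRSF12A was 0.46, KLF6, SAT1 and TNFRSF12A by NAMPT were -0.023, 0.19 and 0.55, and TNFRSF12A by CD47 was -0.040. Without 1 injured replicate, values ran from -0.0092 to 0.59 for SAT1 by RTN4, -0.21 to 0.62 for SAT1 by KLF6, -0.063 to 0.78 for KLF6 by SAT1, -0.15 to 0.27 for NAMPT by SAT1, -0.36 to 0.092 for SAT1 by NAMPT, -0.40 to 0.38 for CD47 by NAMPT, -0.088 to 0.24 for CD44 by CD47, -0.090 to 0.29 for KLF6 by CD47 and -0.15 to 0.42 for NAMPT by CD47, with the sign turned only without replicate 2 except for NAMPT by SAT1 (also without 3) and SAT1 by NAMPT (without 1). The CD44 difference in excitatory neurons was -0.0058 with library size alone, and the share of excitatory neurons with CD47 was -1.91 percentage points, injured minus control, at 1000 UMIs. The causes were not tested. Limits on these results are the single control library, the 37 control microglia with at least 1000 UMIs and control counts of 3 or fewer UMIs in 11 of 42 values, for which only bounds or wide intervals can be given.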
